A study of Homo sapiens with 32 samples.

Results

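Chromosomes 4 and 13 have the lowest GC content of the 23 human chromosomes compared here (chromosomes 1 to 22 and X), and this account covers the uracil-enriched regions that lie on them. The members were chosen with earlier results of these data known. They were taken by position alone: every deposited region on chromosome 4 or 13 in the 15 replicate region files. There were 242042 such regions, 166634 on chromosome 4 and 75408 on chromosome 13, of 2009008 regions on chromosomes 1 to 22, X and Y. The known bases of chromosome 4 amount to 189.75 Mb with 38.2% GC, 757 protein-coding genes and 7.92 CpG dinucleotides per kb, and those of chromosome 13 to 97.98 Mb with 38.6% GC, 323 genes and 8.60 CpG per kb. The genome as a whole had 40.9% GC and 10.01 CpG per kb. Gene density was 3.99 protein-coding genes per Mb on chromosome 4 and 3.30 on chromosome 13, against 6.80 over the genome.

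U-DNA-Seq pulls down sonicated genomic DNA with a catalytically inactive human UNG2 sensor that binds uracil, and sequences the enriched DNA beside its input. The paper states that fluorouracil in DNA is detected too, because UNG also binds it. HCT116 is a human colon carcinoma line deficient in mismatch repair (MMR). WT is HCT116 without treatment or transgene. NT_UGI is HCT116 that stably expresses UGI, a protein inhibitor of the uracil-DNA glycosylase UNG, from a retroviral vector together with EGFP, sorted for green cells and not treated. 5FdUR_UGI and RTX_UGI are the same UGI line after 48 h of exposure to the fluorinated nucleoside 5FdUR (floxuridine, 20 µM) and to the antifolate RTX (raltitrexed, 100 nM), respectively. NT_UGI_MMR, 5FdUR_UGI_MMR and RTX_UGI_MMR are their counterparts in UGI-expressing HCT116 made MMR proficient by an added copy of chromosome 3. Each of these 7 conditions has 2 libraries from independent biological replicates, which gives 6 non-treated and 8 drug-treated libraries. K562, a chronic myelogenous leukemia line, was not treated, carries no UGI and has 1 library, so it enters no test. All drug-treated cells express UGI and 2 of the 6 non-treated libraries do not. DNA of a whole culture was measured, so more cells with uracil at a place and more uracil per cell cannot be told apart.

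Uracil enters DNA either through deamination of cytosine or when a polymerase inserts dUMP in place of dTMP opposite adenine. UNG removes it and starts base excision repair. Both drugs act on thymidylate synthase, which makes dTMP from dUMP, and so raise the supply of dUTP relative to dTTP. Long AT-rich and gene-poor tracts are known to be mostly late-replicating heterochromatin in human cells, while GC-rich and gene-rich bands mostly replicate early.

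The values below are covered shares, the percentage of known bases of a chromosome, bin or gene that lie inside called regions. Each region was a run of 100 bp bins in which the smoothed log2 ratio of enriched over input coverage passed a threshold that the study set for that library. The lowest log2 value in a file ran from 0.13 to 0.33 over the 15 libraries. A covered share therefore depends on that threshold as well as on the enrichment, and the region files hold no read counts, so no counting interval is given. The study sequenced on 2 platforms and the sources used here do not say which library ran on which, so a platform batch could not be examined for any comparison below. The covered share over chromosomes 1 to 22, X and Y was 10.9% to 11.3% in the non-treated libraries. It was 17.1% to 18.9% in the drug-treated libraries and 10.99% in K562. For the MMR-deficient conditions the paper states that thresholds were adjusted to bring replicate and merged files to nearly equal total length. Close totals between replicates were thus set in part by that adjustment, which may also narrow the SDs given below. 5FdUR_UGI_MMR replicate 2 stood apart from the other drug-treated libraries, with the lowest threshold (0.13) and the most regions on the pair of chromosomes (26494).

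Sequence from the regions shows the contrast between the classes at single places. The middle 300 bases are given of 2 stretches, the longest on chromosome 4 called in all 6 non-treated HCT116 libraries and in K562 and in no drug-treated library, and the longest on chromosome 13 called in all 8 drug-treated libraries and in none of the other 7. They come from the reference genome GRCh38, forward strand, in lower case with each CG dinucleotide in capitals.
chromosome 4, without drug: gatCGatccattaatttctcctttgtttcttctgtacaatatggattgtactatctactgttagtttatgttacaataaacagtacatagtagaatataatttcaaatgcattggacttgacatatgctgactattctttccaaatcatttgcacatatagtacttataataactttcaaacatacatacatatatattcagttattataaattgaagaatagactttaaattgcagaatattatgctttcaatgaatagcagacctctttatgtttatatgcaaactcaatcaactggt
chromosome 13, after drug: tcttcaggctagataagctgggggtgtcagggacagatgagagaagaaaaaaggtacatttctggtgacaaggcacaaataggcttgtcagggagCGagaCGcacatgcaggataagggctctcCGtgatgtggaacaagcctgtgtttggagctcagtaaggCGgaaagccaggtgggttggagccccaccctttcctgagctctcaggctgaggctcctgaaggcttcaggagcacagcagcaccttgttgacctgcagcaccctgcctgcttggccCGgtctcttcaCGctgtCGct

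The chromosome 4 window called without drug is chr4:64297501-64297800, in an intron of TECRL, a trans-2,3-enoyl-CoA reductase-like gene on the reverse strand. It holds 27.3% GC and 1 CG, and its stretch of 14300 bp (chr4:64290501-64304800), which also takes in a coding exon of TECRL, carried log2 values from 0.57 to 0.71 in the 7 libraries. The window is far below the GC content of its chromosome.

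The chromosome 13 window called after drug is chr13:44402901-44403200, over an exon of TUSC8, a long non-coding RNA gene on the reverse strand, 56.0% GC with 7 CG, in a stretch of 6100 bp, with SERP2 as the nearest protein-coding gene at 2.29 kb. Among all 300-base windows without unknown bases, 78.4% on chromosome 4 and 80.4% on chromosome 13 held at least 1 CG, and the median window held 2. Stretches of these kinds are a small part of each chromosome. Bases called in the 7 untreated libraries (6 HCT116 and K562) and in no drug-treated library made up 3.31% of chromosome 4 and 4.02% of chromosome 13, and bases called in all 8 drug-treated libraries and in none of the 7 made up 0.156% and 0.207%.

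Without drug, chromosomes 4 and 13 were the most covered chromosomes in each of the 6 HCT116 libraries and in K562. On chromosome 4 the covered share was 20.6% and 20.3% in WT, 20.5% and 19.3% in NT_UGI, and 19.9% and 20.3% in NT_UGI_MMR. On chromosome 13 it was 20.5% and 20.4% in WT, 20.8% and 19.4% in NT_UGI, and 20.2% and 20.1% in NT_UGI_MMR. The lowest value on each chromosome came from NT_UGI replicate 2, and differences between the untreated conditions were not tested. The highest other chromosome of any non-treated library reached 14.6% (chromosome 5, in WT replicate 1).

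After drug both chromosomes were covered less in all libraries but one, with a wide spread. On chromosome 4 the share was 11.2% and 14.7% in 5FdUR_UGI, 15.4% and 21.4% in 5FdUR_UGI_MMR, 8.72% and 9.35% in RTX_UGI, and 12.5% and 10.2% in RTX_UGI_MMR. On chromosome 13 it was 11.6% and 15.1% in 5FdUR_UGI, 15.4% and 17.6% in 5FdUR_UGI_MMR, 8.08% and 8.90% in RTX_UGI, and 9.64% and 8.34% in RTX_UGI_MMR. The classes did not overlap on chromosome 13, and on chromosome 4 they overlapped only through 5FdUR_UGI_MMR replicate 2, which was above every non-treated library. In the 4 RTX libraries the pair ranked between 18 and 22 of 23 chromosomes, and in 5FdUR_UGI_MMR replicate 2 chromosome 4 ranked 4 and chromosome 13 ranked 12.

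**Figure D1:**
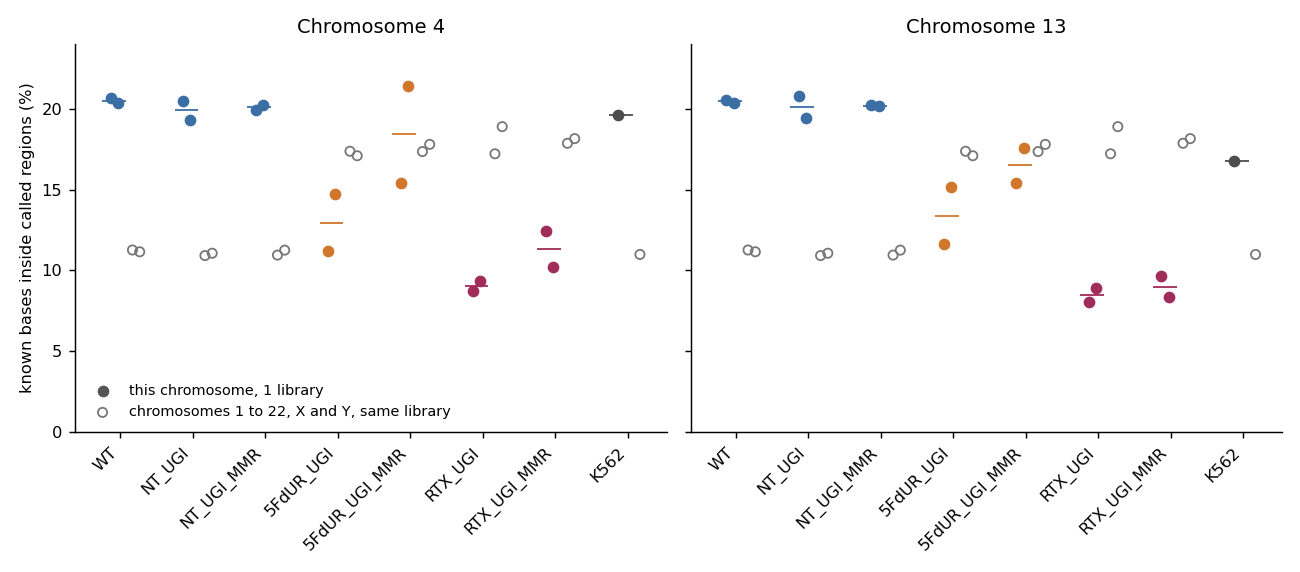
Filled points give the covered share (%) of chromosome 4 and chromosome 13 in each library by condition, with a line at the mean of the 2 libraries, and open points give the share over chromosomes 1 to 22, X and Y in the same library. The filled points sit above the open ones in all non-treated libraries and in K562, and below them in all drug-treated libraries except chromosome 4 of 5FdUR_UGI_MMR replicate 2.

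The mean share of chromosome 4 was 20.2% ± 0.485 (SD, n = 6) without drug and 12.9% ± 4.18 (SD, n = 8) after drug. It fell by 7.23 percentage points (two-sided exact permutation test over libraries, p = 0.0040, adjusted p = 0.0086). For chromosome 13 the means were 20.3% ± 0.474 (SD, n = 6) and 11.8% ± 3.72 (SD, n = 8), and the share fell by 8.41 points (exact permutation p = 0.0010, adjusted p = 0.0025). Adjusted values are Benjamini-Hochberg over the 15 tests of single values made on this pair of chromosomes. With the study's merged region files, 1 per condition and 4 against 3 conditions, the falls were 8.31 and 9.37 points with an exact permutation p of 0.057 for each. The size of the fall depended on which regions were kept. With regions of at least 5 kb it was 3.17 points on chromosome 4 and 4.53 on chromosome 13, with a log2 value of at least 0.34 it was 11.8 and 12.4, and with the highest log2 values up to 300 Mb per library it was 12.4 and 12.6.

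Because the drug-treated libraries had more bases called in all, the share was also set against that of the whole genome in the same library. Without drug chromosome 4 was covered 1.75 to 1.88 times and chromosome 13 1.75 to 1.91 times as much as the genome. After drug the same ratios were 0.495 to 1.20 and 0.460 to 0.988. The classes were fully separate on this scale for both chromosomes. On the log2 scale the ratio fell by 1.37 for chromosome 4 and by 1.51 for chromosome 13, a change to 0.386 and 0.352 of the level without drug (exact permutation p = 0.00033 for each, the smallest the design allows, adjusted p = 0.0010).

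The most GC-rich chromosomes stood at the other end without drug. The GC-rich chromosomes 19 and 22 (47.9% and 47.0% GC) had 1.40% and 1.57% covered on average without drug and 22.7% and 27.9% after drug. By drug the means were 17.1% and 23.8% after 5FdUR and 28.3% and 31.9% after RTX. After 5FdUR chromosome 19 ranked 11 of 23, and chromosome 16 (44.6% GC) had 16.1%, near chromosome 4 with 15.7%. Chromosome 5 and X have GC contents next to chromosome 13 (both 39.5%), and their shares without drug were 14.3% and 6.59%. The X chromosome therefore stood well below the pair at a similar GC content. After drug the means were 15.1% on chromosome 5, 9.18% on X, 11.1% on chromosome 18 and 12.1% on chromosome 21. Chromosomes 4 and 13 had 12.9% and 11.8%, so a low share after drug was not particular to the pair.

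**Figure D2:**
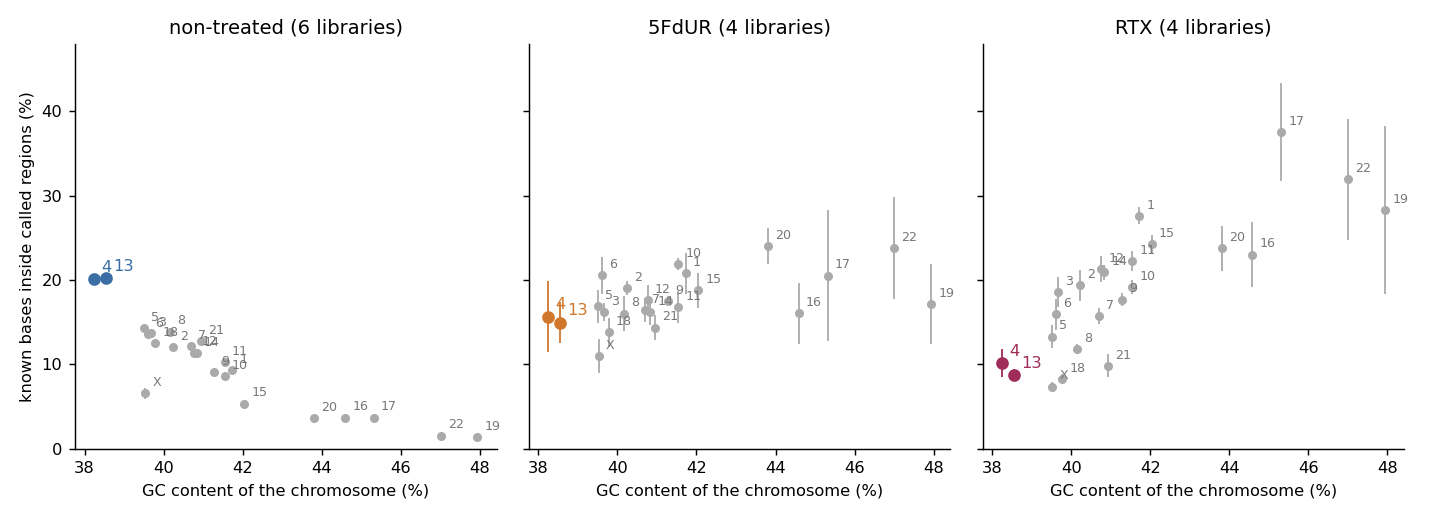
Mean covered share (%) of each of the 23 chromosomes against its GC content (%), with SD over libraries, in the non-treated, 5FdUR and RTX libraries. Chromosomes 4 and 13, in colour, are the most AT-rich points and are the highest without drug (20.2% and 20.3%) and among the lowest after RTX (10.2% and 8.74%). X (7.39%) and chromosome 18 (8.30%) are lower still after RTX.

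To separate the chromosome from its base composition, the share was compared with the share expected from 5 kb windows of the other autosomes in the same library and the same 1% class of GC content. Without drug the observed share was 1.04 to 1.10 times the expected share in the 6 libraries, 1.07 ± 0.0225 on chromosome 4 and 1.10 ± 0.0243 on chromosome 13 (SD, n = 6). The mean log2 ratio was 0.11 (exact sign-flip permutation p = 0.031, the smallest that 6 libraries allow, adjusted p = 0.043), and it was above 0 in 6 of 6 libraries. The plain ratio to the genome averaged 1.82 on each chromosome. With any 1 library left out the smallest p that 5 libraries allow is 0.0625, and the mean log2 ratio was 0.042 with 100 kb windows, 0.16 with X among the reference chromosomes and 0.20 with regions of at least 5 kb.

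After drug this ratio split by drug. It was 1.0015, 1.30, 1.28 and 1.31 in the 4 5FdUR libraries and 0.642, 0.658, 0.744 and 0.680 in the 4 RTX libraries, so that the ranges did not overlap. Over all 8 drug-treated libraries the mean log2 ratio was -0.14 (exact sign-flip permutation p = 0.42), and with 100 kb windows it was 0.13 (p = 0.26). In K562 the ratio was 1.05 on chromosome 4 and 0.923 on chromosome 13. The expected share used the windows of all other autosomes in the library, and copy number was not examined.

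The 5FdUR and RTX libraries also differed in the covered share itself. For each drug the MMR-deficient and MMR-proficient libraries were pooled, and drug labels were permuted without regard to MMR status. On chromosome 13 the mean was 14.9% ± 2.46 after 5FdUR and 8.74% ± 0.689 after RTX (SD, n = 4 each), a difference of 6.21 points with no overlap (exact permutation p = 0.029, adjusted p = 0.043; 70 assignments). On chromosome 4 the means were 15.7% ± 4.24 and 10.2% ± 1.63 (SD, n = 4 each), a difference of 5.49 points that did not pass the test (exact permutation p = 0.057). The thresholds differed with the drug, from 0.13 to 0.25 in 5FdUR and from 0.25 to 0.27 in RTX libraries. When only regions with a log2 value of at least 0.34 were kept in every library, the sign turned on both chromosomes, to -3.01 points on chromosome 4 (exact permutation p = 0.17) and -1.73 on chromosome 13 (p = 0.46). Leaving out any 1 of the 4 RTX libraries gave an exact permutation p of 0.057 for chromosome 13, with differences of 5.99 to 6.51 points.

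5FdUR is a nucleoside that is phosphorylated to FdUMP, a mechanism-based inhibitor of thymidylate synthase that can also be incorporated into DNA, and RTX is an antifolate inhibitor of the same enzyme. Regions called after 5FdUR can therefore reflect fluorouracil as well as uracil, which these data cannot tell apart. They were given at 20 µM and 100 nM, so the doses are not matched. The MMR status of the cells was compared within each treatment. On chromosome 4 the proficient cells had 0.173 points more than the deficient cells without drug, 5.46 more after 5FdUR and 2.29 more after RTX. The mean difference over the treatments was 2.64 points (exact permutation of MMR status within treatment, p = 0.028, adjusted p = 0.043). On chromosome 13 the differences were 0.075, 3.11 and 0.501 points, with a mean of 1.23 (exact permutation p = 0.16; 0.046 without NT_UGI replicate 1). The chromosome 4 call ended with regions of at least 5 kb only (0.814 points, exact permutation p = 0.16), and with regions of a log2 value of at least 0.34 the difference was -0.64 points (exact permutation p = 0.71). It also ended, with exact permutation p-values up to 0.20, without any 1 of NT_UGI replicate 2, NT_UGI_MMR replicate 2, 5FdUR_UGI replicate 1, 5FdUR_UGI replicate 2, 5FdUR_UGI_MMR replicate 2, RTX_UGI replicate 1 or RTX_UGI replicate 2, and the value ran from 1.64 to 3.64 points.

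Along both chromosomes the covered share was measured in 288 bins of 1 Mb in which 50% or more of the bases are known, 190 of them on chromosome 4 and 98 on chromosome 13. The call for a bin was lower after drug when every one of the 8 drug-treated libraries lay below every one of the 6 non-treated libraries, and higher in the opposite case. On the pair of chromosomes 112 bins (38.9%) were lower and 51 (17.7%) were higher. Among all 2921 bins of chromosomes 1 to 22 and X the background was 24.3% lower and 33.2% higher. The pair thus leaned to lower bins where the genome leaned to higher ones. Chromosome 4 had 67 lower and 33 higher bins, and chromosome 13 had 45 lower and 18 higher. With each library scaled by its total share, 140 bins were lower (48.6%) and 41 higher (14.2%), beside a background of 30.4% and 28.3%. With only regions of a log2 value of at least 0.34 the higher bins numbered 5, and with regions of the highest log2 values up to 300 Mb per library they numbered 27.

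The 2 kinds of bin were distinct in sequence and gene content, which the call did not use. Lower bins had a median GC content of 35.2% (34.0% to 38.6%) and a median of 1 protein-coding gene, and 40 of the 112 overlapped none. Higher bins had a median GC content of 42.0% (38.2% to 54.6%) and a median of 8 genes, and each overlapped at least 1. The GC ranges of the classes met only between 38.2% and 38.6%. The median bin called lower went from 39.5% covered without drug to 2.94% after drug, and the median bin called higher from 3.03% to 31.8%. In K562 the medians over the same bins were 36.4% and 2.52%, close to the untreated HCT116 values.

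Ordered by GC content into 5 groups of 57 or 58, the bins formed a gradient that ran in opposite directions. In the 58 most AT-rich bins (34.0% to 35.3% GC) the mean share was 47.0% ± 1.95 without drug (SD, n = 6), 5.04% ± 4.65 after 5FdUR (SD, n = 4) and 0.270% ± 0.251 after RTX (SD, n = 4), and all 58 were lower after drug. In the 58 most GC-rich bins (40.6% to 54.6% GC) the mean was 2.88% ± 0.388 without drug, 31.5% ± 2.71 after 5FdUR and 24.5% ± 1.28 after RTX, and 36 were higher after drug and none lower. K562 had 41.03% in the most AT-rich group and 2.70% in the most GC-rich. The 4 RTX libraries lay between 0.0529% and 0.623% in the most AT-rich group and the 4 5FdUR libraries between 0.160% and 10.6%, so the drugs overlapped there.

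**Figure D3:**
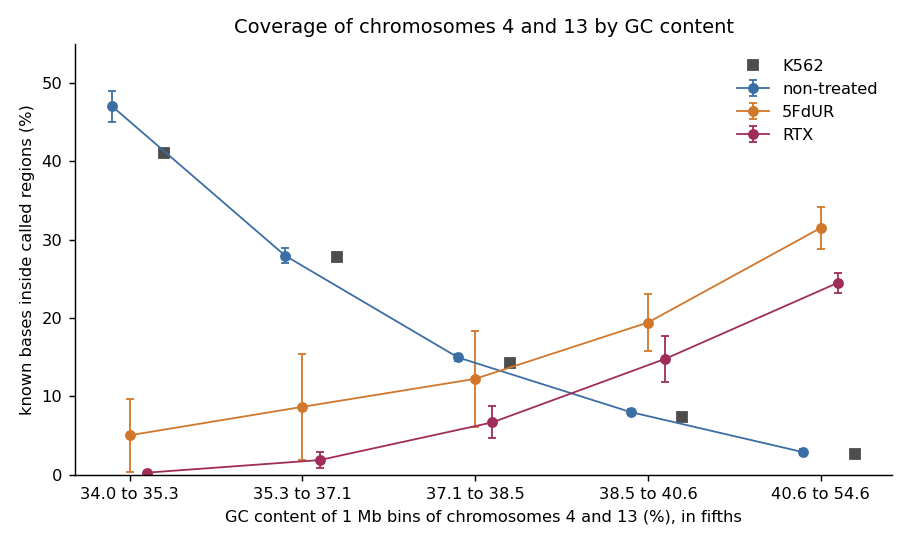
Mean covered share (%) of the 1 Mb bins of chromosomes 4 and 13 in 5 groups of GC content (%), for non-treated (n = 6), 5FdUR (n = 4) and RTX libraries (n = 4), with SD over libraries, and the single K562 library. The untreated line falls from 47.0% to 2.88% from left to right, while the 5FdUR and RTX lines rise.

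By condition, nearly empty bins were most frequent after RTX. In the mean of its 2 libraries RTX_UGI had 162 of 288 bins under 1%, and RTX_UGI_MMR had 131. The count was 23 in 5FdUR_UGI, 18 in 5FdUR_UGI_MMR, 16 in K562, 15 in NT_UGI and 14 each in WT and NT_UGI_MMR. These means join libraries with different thresholds. The lowest log2 value was 0.25 and 0.14 in 5FdUR_UGI replicates 1 and 2 and 0.25 in each RTX_UGI library. At chr13:61000001-72000000 the 2 5FdUR_UGI replicates had 0.0745% and 7.55%, and the RTX_UGI replicates 0.111% and 0.00455%. The part of the thresholds in these counts was not tested. Bins above 25% were 98, 93 and 93 in WT, NT_UGI and NT_UGI_MMR, 93 in K562, and between 40 and 72 in the drug-treated conditions. The most covered bin was the same in all 3 untreated HCT116 conditions, chr13:87000001-88000000, with 57.5% ± 3.86 (SD, n = 6) and SLITRK5 as its protein-coding gene. After drug its mean share was 1.52% ± 2.60 (SD, n = 8).

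**Figure D4:**
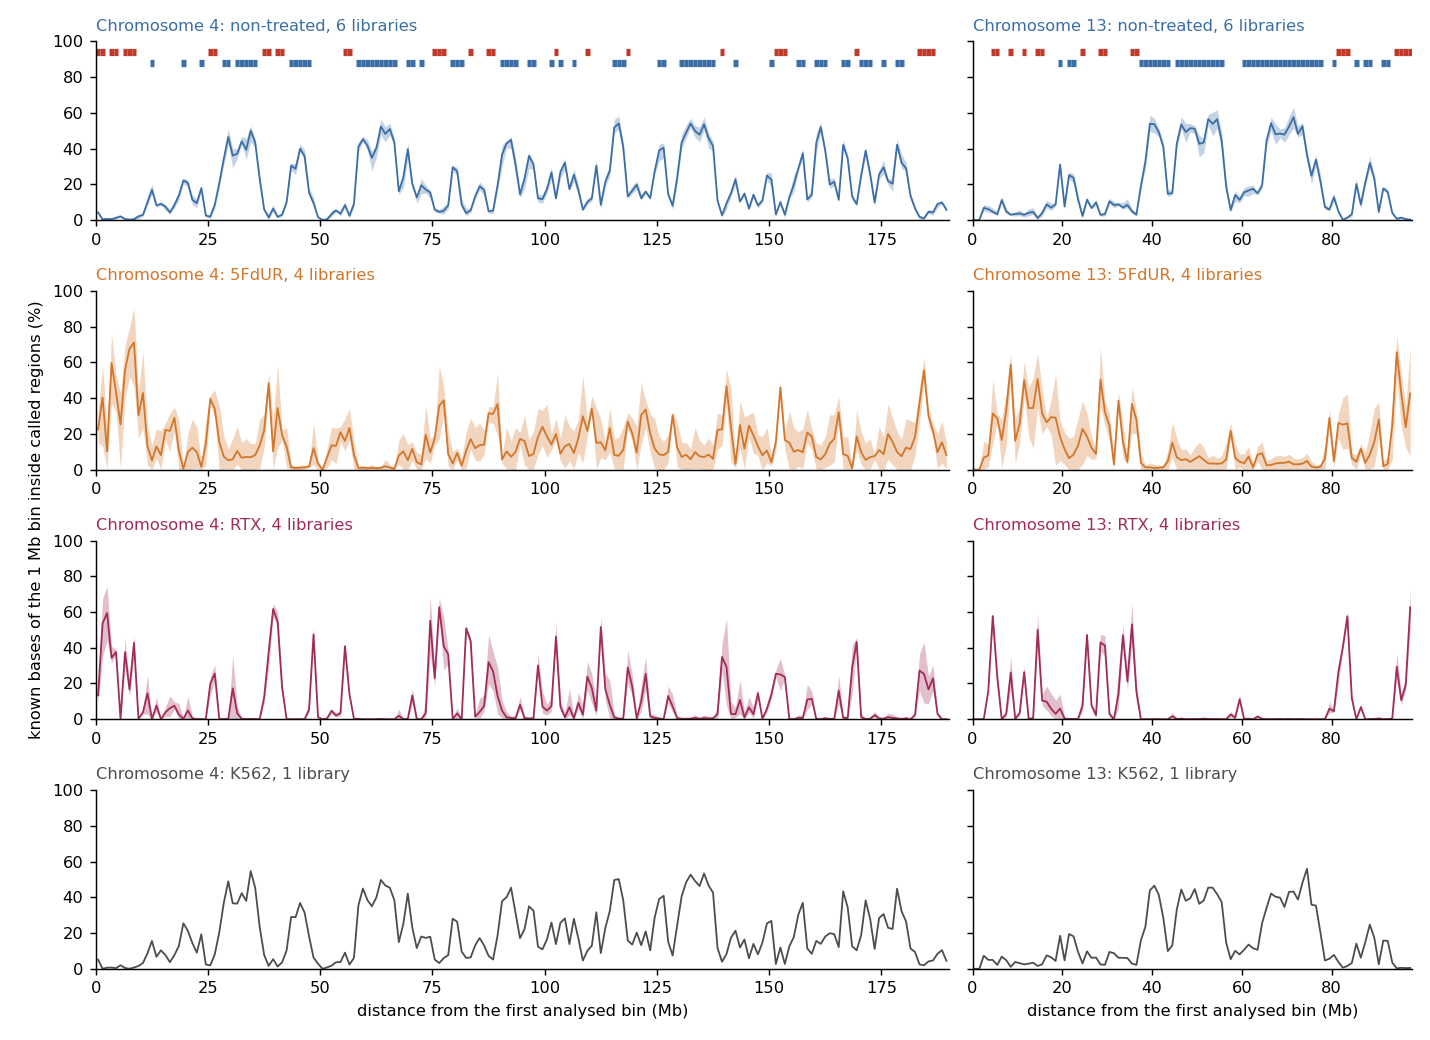
Covered share (%) in 1 Mb bins along chromosomes 4 and 13, as distance from the first analysed bin (Mb), for the non-treated, 5FdUR and RTX libraries (line, mean; band, lowest to highest library) and for K562. Marks above the first row show bins lower (blue, 112) and higher (red, 51) after drug, and the longest runs of lower bins lie where the non-treated line is high.

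The longest runs of adjacent called bins were of lower bins, which also outnumbered higher bins (112 against 51). On chromosome 4 the 67 lower bins fell into 26 runs and the 33 higher bins into 17. On chromosome 13 the 45 lower bins fell into 9 runs and the 18 higher bins into 9. Chromosome 13 had the longest run of lower bins, 18 adjacent bins at chr13:76000001-94000000, and runs of 11 bins (chr13:61000001-72000000) and 7 bins (chr13:53000001-60000000) followed. Chromosome 4 had runs of 9 bins (chr4:58000001-67000000), 8 bins (chr4:130000001-138000000) and 5 bins (chr4:31000001-36000000). The longest runs of higher bins had 4 bins on each chromosome. The call chose these runs, so their shares are given as a description.

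The run at chr4:58000001-67000000 has 34.9% GC and 3 protein-coding genes in 9 Mb: ADGRL3, an adhesion G protein-coupled receptor of the latrophilin family, EPHA5, an ephrin receptor tyrosine kinase, and TECRL. Its share was 44.4%, 44.6%, 46.6%, 40.9%, 44.7% and 44.2% in the non-treated libraries and between 0% and 2.38% in the drug-treated ones. RTX_UGI_MMR replicate 2 and 5FdUR_UGI replicate 1 had no called base in it. The run at chr4:130000001-138000000 holds PCDH10 and PCDH18, 2 protocadherins, and PABPC4L, and went from 48.1% ± 2.15 (SD, n = 6) to 3.96% ± 6.01 (SD, n = 8). There 5FdUR_UGI_MMR replicate 2 and 5FdUR_UGI replicate 2 had 15.9% and 10.6%, whereas the 4 RTX libraries were at or below 1.40%. The run with PCDH7 and ARAP2 at chr4:31000001-36000000 went from 42.8% ± 1.99 to 4.31% ± 6.04.

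On chromosome 13 the run of 18 bins holds 20 protein-coding genes with 35.7% GC, and its longest genes are GPC5 and GPC6, which encode glypican proteoglycans, and MYCBP2, an E3 ubiquitin ligase. Its share was 36.9%, 36.8%, 37.9%, 34.0%, 36.9% and 35.3% without drug, between 0.337% and 6.87% after 5FdUR, and between 0.0942% and 0.332% after RTX. The run with PCDH9, DACH1 and KLHL1 was covered 49.6% ± 2.50 without drug and 2.57% ± 4.09 after drug. The run with DIAPH3, PCDH17 and OLFM4 was covered 37.7% ± 1.37 and 1.03% ± 1.54. The highest RTX library in any of these 3 runs had 0.460%.

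The runs of higher bins were gene-rich. At chr13:110000001-114000000, 4 bins with 48.1% GC and 31 protein-coding genes, among them COL4A2, which encodes a chain of basement membrane collagen, MCF2L and ATP11A, the share was 0.343% to 1.09% without drug and 25.8% to 52.6% after drug. At chr4:6000001-9000000, with 51.4% GC and 27 genes (the longest SORCS2, C4orf50 and PPP2R2C), it was 0.427% ± 0.215 without drug, 64.8% on average after 5FdUR and 32.2% after RTX. At chr4:183000001-187000000, with SORBS2, STOX2 and WWC2, the mean went from 2.90% to 29.6%. All of these runs were covered little in untreated cells.

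Some other higher runs leaned to RTX. At chr4:75000001-78000000, with SHROOM3, CCNG2 and PARM1, the mean was 5.17% ± 0.684 without drug, 30.7% after 5FdUR and 42.2% after RTX. At chr13:97000001-100000000, with FARP1, CLYBL and DOCK9, it was 2.14%, 25.7% and 41.5%, and at chr13:20000001-22000000, with ZMYM2, XPO4 and IFT88, it was 3.97%, 30.1% and 40.7%. In the second of these the ranges were 18.1% to 35.9% after 5FdUR and 39.0% to 43.0% after RTX, without overlap.

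Bin by bin, all 4 5FdUR libraries lay above all 4 RTX libraries in 63 of the 288 bins (21.9%) and below them in 24 (8.33%). Over all 2921 bins the background was 23% above and 17.5% below. On chromosome 13 the counts were 28 above and 8 below of 98. The bins with the largest gaps were named after their values were seen. At chr4:7000001-8000000, around SORCS2, 5FdUR libraries had 52.0% to 79.6% and RTX libraries 12.7% to 20.2%, and at chr4:10000001-11000000 they had 23.4% to 66.0% and 2.95% to 6.18%. In the other direction, at chr4:39000001-40000000 the 5FdUR libraries had 0.430% to 27.9% and the RTX libraries 57.5% to 64.5%, and at chr4:2000001-3000000 they had 0.260% to 22.8% and 43.9% to 74.4%. Neither pattern was visible without drug, where the highest non-treated value in these 4 bins was 8.78%.

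The ends of the arms differed from each other. In the 5 Mb at the end of the chromosome 4 short arm the share was 1.502%, 1.22%, 1.10%, 2.06%, 1.17% and 1.35% in the non-treated libraries. After drug it was 43.3% and 44.3% in 5FdUR_UGI, 33.9% and 19.6% in 5FdUR_UGI_MMR, 39.8% and 48.2% in RTX_UGI, and 31.1% and 39.3% in RTX_UGI_MMR. The mean rose by 36.0 points (exact permutation p = 0.00033, adjusted p = 0.0010), higher in 8 of 8 drug-treated libraries than in any non-treated one. In the last 5 Mb of the chromosome 13 long arm the share was 0.837% to 1.44% without drug and 23.5% to 50.4% after drug, a rise of 34.4 points (exact permutation p = 0.00033, adjusted p = 0.0010). Means there were 43.0% ± 8.33 after 5FdUR and 27.8% ± 5.07 after RTX (SD, n = 4 each).

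The end of the chromosome 4 long arm, which carries a macrosatellite repeat array, had a share of 6.23% to 7.10% without drug and 6.60% to 22.8% after drug, with means of 6.64% ± 0.307 (SD, n = 6) and 11.7% ± 6.12 (SD, n = 8). The difference of 5.02 points did not pass the test (exact permutation p = 0.058, adjusted p = 0.067). The highest values were 22.8% and 17.2% in 5FdUR_UGI_MMR and 15.9% in 5FdUR_UGI replicate 2, and the 4 RTX libraries lay between 6.60% and 8.38%. Leaving out any 1 non-treated library, RTX_UGI replicate 1 or RTX_UGI_MMR replicate 2 brought an exact permutation p as low as 0.038. Over 2 Mb in place of 5 Mb the sign turned (-3.16 points, exact permutation p = 0.30), and over 10 Mb the difference was 8.43 points (exact permutation p = 0.019). Reads that map to several places had been removed by the study, which leaves repeats there unmeasured.

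The make-up of the regions followed the same pattern. Bases inside regions on the pair had 33.2% to 33.4% GC and 5.01 to 5.18 CpG per kb in the non-treated libraries, and 40.3% to 44.2% GC and 9.13 to 13.7 CpG per kb in the drug-treated libraries. The GC content of region bases rose by 8.79 points (exact permutation p = 0.00033, adjusted p = 0.0010), from 33.4% ± 0.091 (SD, n = 6) to 42.1% ± 1.40 (SD, n = 8). In K562 the values were 33.3% GC and 5.11 CpG per kb. Of all known bases of the pair 36.9% lie in protein-coding genes, against 28.3% to 29.4% of region bases without drug, 33.04% to 38.1% after 5FdUR and 49.3% to 51.1% after RTX. Region bases were thus below the chromosomes' own gene share without drug, near it after 5FdUR and above it after RTX, a comparison for which no test was run.

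Region lengths changed in a less simple way. The N50, the length such that 50% of the called bases lie in regions of that length or longer, was 5400 to 6200 bp without drug and 5100 to 18100 bp after drug. By drug the N50 was 18100, 6400, 5800 and 5100 bp in the 5FdUR libraries and 8900 to 17100 bp in the RTX libraries. Its mean on the log2 scale was 0.73 higher after drug, a factor of 1.66 (exact permutation p = 0.029, adjusted p = 0.043), but the median region was shorter, 1200 to 1600 bp without drug and 900 to 1100 bp after drug (log2 difference -0.45, exact permutation p = 0.00033). A higher N50 and a shorter median region were thus found side by side. In the bases shared by both replicates of a condition, and in the merged files, the N50 difference had exact permutation p-values of 0.14 and 0.086. With a log2 value of at least 0.34 it was 1.64 on the log2 scale (exact permutation p = 0.00033), and with the highest log2 values up to 300 Mb per library 1.98 (p = 0.0017).

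The longest single regions differed in what they cover. Without drug the longest on chromosome 4 had 50.1 kb (chr4:160886101-160936200, WT replicate 1, log2 value 0.54), with 32.4% GC and no protein-coding gene, and 2.35% of it was called on average after drug. The longest on chromosome 13 had 45.6 kb (chr13:69058801-69104400, NT_UGI_MMR replicate 2, 0.63), again with no protein-coding gene. After 5FdUR the longest on chromosome 13 had 239.5 kb (chr13:30655201-30894700, 5FdUR_UGI replicate 1) with 45.3% GC, over ALOX5AP and USPL1. After RTX the longest on chromosome 4 had 290.1 kb (chr4:74334701-74624800, RTX_UGI replicate 2) with 36.8% GC, below that of its chromosome, over the growth factor genes EREG and AREG, and 17.2% of it was called on average without drug. After RTX the longest on chromosome 13 had 356.8 kb (chr13:113079201-113436000, RTX_UGI replicate 2) with 50.7% GC and 9 protein-coding genes, the coagulation factor genes F7 and F10 and the ubiquitin ligase scaffold gene CUL4A among them. These regions were singled out by length after the values were seen.

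Gene bodies were read in the same way as bins. Of the 1080 protein-coding genes of the pair, 152 (14.1%) were lower in every drug-treated library than in every non-treated library and 146 (13.5%) were higher. Over the 19970 protein-coding genes of chromosomes 1 to 22 and X the background was 5.13% lower and 15.1% higher. The median gene of the pair was covered 4.70% without drug and 15.3% after drug, and the median gene of the genome 0% and 28.9%. Genes of the pair were thus called lower at a rate above the genome's, and higher at a rate near it. A gene with no called base in even 1 non-treated library cannot be called lower, whatever its share after drug. With a median of 0% without drug, many genes of the genome were in that position, so the lower rates also reflect coverage without drug. With only regions of a log2 value of at least 0.34, 2 genes were higher, and without the 5FdUR_UGI_MMR libraries 233 were.

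The 10 longest protein-coding genes of each chromosome were mostly lower after drug, 7 of 10 on chromosome 4 and 8 of 10 on chromosome 13, where 14.1% of all genes of the pair and 5.13% of the genome were. These shares include genes with no called base without drug, which cannot be called lower. CCSER1, of 1478 kb, had 38.0% to 45.2% without drug and 0% to 7.70% after drug. Its mean went from 41.1% to 2.06%, that of ADGRL3 from 39.8% to 0.333%, that of MARCHF1, a membrane-bound ubiquitin ligase gene, from 32.8% to 4.15%, and that of INPP4B, an inositol phosphatase gene, from 24.8% to 0.613%. GALNTL6 and STPG2 were lower too, with means of 26.7% and 32.1% without drug and 4.05% and 4.83% after drug. KCNIP4, which encodes a potassium channel interacting protein, did not separate: 8.80% to 12.7% without drug, and after drug means of 11.4% for 5FdUR and 0.498% for RTX.

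On chromosome 13, GPC5 had 28.5% to 33.9% without drug and 0% to 2.03% after drug, and GPC6 15.9% to 21.1% and 0% to 4.37%. PCDH9 went from 43.9% to 3.77%, NBEA, a neuronal scaffold protein gene, from 43.7% to 3.14%, and NALF1, FGF14, HS6ST3 and MYO16 from between 12.1% and 18.2% to between 0.975% and 2.33%. MTUS2 and ATP8A2 did not separate, since the 4 RTX libraries had no called base in either while 5FdUR libraries averaged 16.3% and 7.89%. In each of the 8 lower genes the mean after RTX was below that after 5FdUR. In K562 the widest gap to the untreated HCT116 range was at NBEA (25.7% against 40.6% to 45.8%).

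**Figure D5:**
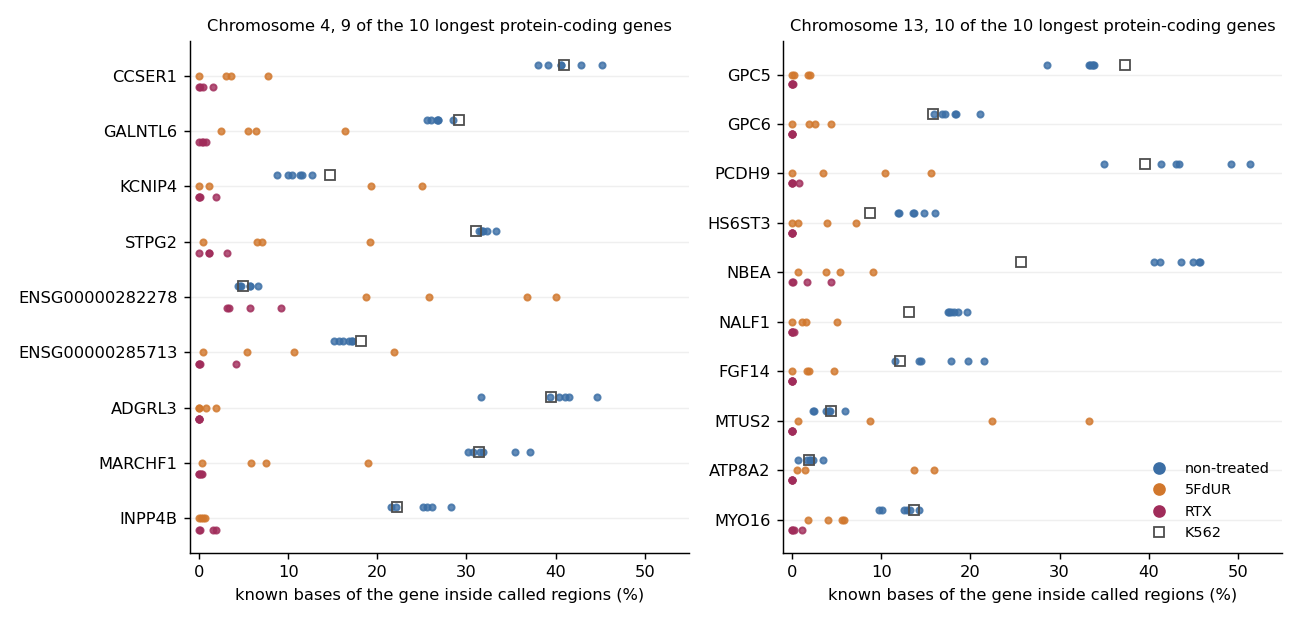
Covered share (%) of 9 of the 10 longest protein-coding genes of chromosome 4 and of the 10 longest of chromosome 13 in each library, by class. Open squares are K562. Non-treated points lie to the right of all 5FdUR and RTX points in 14 of the 19 genes shown, and the exceptions are KCNIP4, 2 genes without a symbol (ENSG00000282278 and ENSG00000285713), MTUS2 and ATP8A2.

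Further genes were read by family, and some stand in 2 lists. Beside these counts, 14.1% of all genes of the pair were lower after drug and 13.5% higher. Over the genome the shares were 5.13% and 15.1%. Members of several lists are neighbours on a chromosome, so their counts are not counts of independent places. All 4 GABA-A receptor subunit genes of chromosome 4, which encode chloride channels opened by GABA, were lower after drug, with a list median of 39.4% without drug and 0.812% after drug. The 4 genes lie between chr4:46035769 and chr4:47426447. GABRG1 had 68.3%, 65.6%, 75.8%, 74.8%, 66.9% and 65.4% in the non-treated libraries and 0% to 3.62% after drug, with no called base in any RTX library. GABRB1 had 15.3% to 22.2% and 0% to 3.26%. Of 9 axon guidance and adhesion genes 6 were lower and none higher: SLIT2, a secreted guidance cue gene, had 31.6% ± 4.03 and 2.53% ± 3.63, and EPHA5 had 61.8% ± 4.08 and 0.559% ± 1.48. UNC5C, a netrin receptor gene, TENM3 and DCLK1 did not separate.

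Of the 7 non-clustered protocadherin genes, which encode homophilic adhesion proteins, 3 were lower and none higher, where 14.1% and 13.5% of all genes of the pair were. PCDH17 had 69.3%, 59.3%, 75.1%, 62.9%, 70.4% and 69.8% without drug and 0% to 5.32% after drug. PCDH10 and PCDH9 were lower as well. PCDH7 overlapped, since it had 51.3% and 51.7% in RTX_UGI and 0.141% and 0% in RTX_UGI_MMR, against 24.1% to 40.6% without drug. PCDH8, a short gene of 56.3% GC, had no called base without drug and a mean of 67.4% after 5FdUR and 0% after RTX. PCDH18 and PCDH20 were not called in either direction.

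Of the 3 SLITRK genes of chromosome 13, which encode synaptic adhesion proteins, 2 were lower and none higher, where 14.1% and 13.5% of all genes of the pair were. SLITRK6 (32.6% GC) had 86.4%, 92.1%, 77.1%, 85.7%, 65.0% and 56.4% without drug and at most 0.714% after drug, and SLITRK5 had 58.0% to 67.2% and 0% to 45.2%. SLITRK1 (47.4% GC) was at 0% in all libraries but one, 5FdUR_UGI replicate 2, which had 96.2%. Of 8 genes of glutamate and other receptors and of the synapse on chromosome 4, 4 were lower and none was higher, GRIA2, GLRA3 and GLRB among the lower ones. SORCS2 (53.7% GC) had at most 0.218% without drug and means of 84.5% after 5FdUR and 0.713% after RTX.

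Families of secreted and metabolic proteins on chromosome 4 differed in their counts. Of 14 genes for casein, saliva and enamel proteins 10 were lower and none higher, with a list median of 56.7% without drug and 0% after drug, the lowest of the lists. All 14 lie between chr4:69931068 and chr4:70646824, so they are not independent places. CSN1S1, CSN2 and CSN3, which encode milk caseins, averaged 65.8% to 70.6% without drug and had no called base in any drug-treated library. Of 10 UGT2 genes, which encode glucuronosyltransferases of the liver and other tissues, 8 were lower, with a list median of 45.1% and 2.19%. UGT2A1 and UGT2A2 overlap, and all 10 lie between chr4:68537173 and chr4:69653249. These genes are near-identical copies in part, and reads that map to several places were removed, so their shares are uncertain. By the same rule 1 of 7 alcohol dehydrogenase genes (ADH4) and 1 of 7 genes of the albumin and fibrinogen families (GC, the vitamin D binding protein gene) were lower, close to the 14.1% of all genes of the pair. None of the 13 CXC chemokine genes was called in either direction, and their list median was 1.39% without drug and 24.9% after drug.

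Genes of DNA replication, repair and the cell cycle did not go one way. Of 28 such genes 4 were lower and 2 higher, where 14.1% and 13.5% of all genes of the pair were, and the list median was 5.20% without drug and 17.4% after drug. The lower ones were SMARCAD1, a chromatin remodeler gene, CENPE, a kinetochore motor gene, FBXW7, a ubiquitin ligase subunit gene, and PDS5B, a cohesin regulator gene, with means of 23.7%, 31.6%, 33.6% and 25.8% without drug and 4.33%, 4.41%, 9.27% and 6.51% after drug. The higher ones were ABRAXAS1 (0.496% and 41.1%), a DNA damage response gene, and CUL4A (0% and 63.1%). RFC1, the large subunit gene of the clamp loader, was called in neither direction and averaged 2.78% after 5FdUR and 62.1% after RTX, and POLN, a DNA polymerase gene, had 0.881% and 79.9%.

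Of the 9 genes of receptor tyrosine kinases and TEC family kinases 1 was lower (EPHA5) and none higher. KIT and KDR were covered little in either class (3.35% and 1.09% without drug, 3.07% and 1.67% after drug). FLT1, FLT3 and PDGFRA averaged 46.2%, 58.3% and 41.6% after 5FdUR and at most 3.003% after RTX. FGFR3, TEC and TXK went the other way, with 26.6%, 3.04% and 3.64% after 5FdUR and 75.0%, 32.2% and 23.6% after RTX. Of 19 housekeeping genes 1 was higher (HMGB1, a chromatin protein gene, 0.684% and 54.5%) and 1 lower (ESD, an esterase gene, 48.0% and 5.09%), and the list median went from 0.923% to 21.98%. Neither the kinase nor the housekeeping list went above the shares over all genes of the pair, 14.1% lower and 13.5% higher.

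The genes listed for 2 of the arm ends were called in 1 direction or in neither. Of 23 genes of the chromosome 4 short-arm end 9 were higher and none lower, and of 29 genes of the chromosome 13 long-arm end 14 were higher and none lower, against 13.5% higher over the pair, and the other 14 and 15 were called in neither direction. Both list medians were 0% without drug, and 40.4% and 41.8% after drug. SPON2, RNF212 and CTBP1 on chromosome 4 averaged 68.4%, 67.3% and 50.7% after drug. NAXD, GRK1 and F7 on chromosome 13 averaged 60.2%, 63.7% and 62.9%. NSD2, a histone methyltransferase gene called in neither direction, had a mean of 5.56% after 5FdUR and 66.4% after RTX, while COL4A1, also in neither, had 82.9% and 0.584%.

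K562 had 19.6% of chromosome 4 and 16.7% of chromosome 13 covered, the second below every untreated HCT116 library (19.4% to 20.8%). Across the 288 bins its profile correlated with the mean untreated HCT116 profile at Pearson r = 0.96, a description across bins, which are not independent. K562 lay within the range of the 6 untreated HCT116 libraries in 167 bins, above it in 32 and below it in 89, and 58 of the 89 were on chromosome 13. On the other chromosomes it was above the range in 551 and below it in 443 of 2633 bins. The widest gaps were again chosen after their values were seen. At chr4:161000001-162000000, in FSTL5, K562 had 13.9% and HCT116 49.4% to 54.8%, and the bins on each side had 15.6% against 37.8% to 48.9% and 18.1% against 36.0% to 40.7%. At chr13:90000001-91000000 the order was reversed, with 55.9% in K562 and 33.3% to 39.4% in HCT116. With 1 K562 library, spread between K562 cultures is unknown, and copy number in either line was not examined.

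Replicate libraries of 1 condition shared part of their called bases. The Jaccard index on the pair, the shared bases over all bases called in either library, averaged 0.409 over the 7 HCT116 conditions (0.241 to 0.510). Pairs of non-treated libraries from different conditions had 0.395 to 0.484. Pairs of 1 drug-treated and 1 non-treated library had 0.00605 to 0.0594. K562 had 0.377 to 0.436 with the non-treated HCT116 libraries. Where 2 non-treated libraries came from different conditions, the index on chromosomes 4 and 13 was above that on the other chromosomes in 12 of 12 cases (means 0.435 and 0.371), and for drug-treated pairs of different conditions in 1 of 24 (0.221 and 0.264). The index can rise with the share of bases called. That share was higher on the pair than over the genome without drug, and mostly lower after drug. The pairs reuse the same libraries, so the cases are not independent.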

How the data were processed

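Per the labels and the study's methods, reads of U-DNA-Seq and input libraries were aligned to GRCh38 with BWA 0.7.17-r1194 and handled with SAMtools 1.9-50, multiply mapped and blacklisted reads were removed, and deepTools 3.2.1 gave smoothed log2 ratios of enriched over input coverage in 100 bp bins. The authors deposited regions above a threshold tuned per library, each with a log2 value, for 15 libraries, and merged regions for the 7 HCT116 conditions, used as an alternative. Input and mock libraries had no files here.

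Regions, which end within both chromosomes, were laid on GRCh38 with GENCODE 44, using Python 3.11.15 and NumPy 2.4.6. The covered share was the percentage of known bases inside regions, in chromosomes, in 1 Mb bins with at least 50% known bases and in gene bodies. Libraries were the replicates. Single values were tested by two-sided exact permutation over libraries, with Benjamini-Hochberg adjustment over 15 tests, and features by complete separation of the classes. The call by complete separation in bins was tested on simulated covered shares. The spread of the non-treated libraries was given to both classes there, so the wider spread after drug was not simulated. The permutation test was checked on a small known case, and the other steps were not tested in this way. Genes named in the text are the 10 longest of each chromosome, members of 15 gene lists given with their list's count, and the 3 longest in the 3 longest runs of called bins. The members, lists and tests were chosen with earlier results of these data known. Some genes and sequences that these rules pick are not reported here.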

Additional observations from a re-analysis of the deposited data

Results flagged for a closer look

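After 5FdUR, the N50 of regions on the pair of chromosomes was 18100 bp in 5FdUR_UGI replicate 1, far from the other 3 libraries (5100 to 6400 bp). After RTX, the ratio of the chromosome 13 share to the genome share was 0.540 in RTX_UGI_MMR replicate 1, against 0.460 to 0.471 in the other 3. These were 2 of 48 groups examined, and chance gives about 5%. The drug effect on the chromosome 13 share differed between the drugs, 6.21 percentage points higher after 5FdUR than after RTX (exact permutation p = 0.029), against the same 6 non-treated libraries. Thresholds differed, from 0.13 to 0.25 in 5FdUR and from 0.25 to 0.27 in RTX libraries. The sign turned when only regions with a log2 value of at least 0.34 were kept in every library. Without any 1 of the RTX libraries the exact permutation p was 0.057.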

How the results depend on the processing

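Over 20 results, 99 of 135 alternatives left the direction and the side of the threshold unchanged (counts within 1.5 times), as did 209 of 236 values with 1 library left out. The causes of the changes below were not tested, except that merged files and bases called in both replicates leave 4 against 3 conditions. With merged files the drug differences were -8.31 points (chromosome 4), -9.37 (chromosome 13) and 1.26 (log2 N50). With bases in both replicates the log2 N50 difference was 0.69, the chromosome 4 short-arm end 24.8 points and the lower genes 234. With a log2 value of at least 0.34, 5FdUR minus RTX was -3.01 (chromosome 4) and -1.73 (chromosome 13), MMR -0.64 and -1.17, the chromosome 4 long-arm end -1.41, higher bins 5 and higher genes 2. With regions of at least 5 kb these were 1.99 for chromosome 4 5FdUR minus RTX, 0.814 and -0.0690 for MMR, 4.71 for the long-arm end, 51 higher and 96 lower genes. Up to 300 Mb per library gave -0.984 for that end, 27 higher bins and 16 higher genes. That end was 2.24 without 5FdUR_UGI_MMR, 8.43 over 10 Mb and -3.16 over 2 Mb. Higher genes numbered 233 without 5FdUR_UGI_MMR and 223 with 10 kb flanks. Bins of 500 kb gave 81 higher and 220 lower, and bins of 100 kb 276 and 1085. The median length difference was -0.45 (log2), the ratio at matched GC after drug 0.126 (log2) with 100 kb windows, and the share of regions overlapping between replicates 0.534.

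With 1 library left out, 5FdUR minus RTX ran from 3.58 to 6.99 (chromosome 4) and 5.33 to 7.31 (chromosome 13), MMR from 1.64 to 3.64 and 0.646 to 1.81, the ratio at matched GC without drug from 0.103 to 0.119, and the chromosome 4 long-arm end from 3.43 to 5.74.

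Replicate numbers did not pair the libraries (deviations correlated at -0.52 to 0.41 over 21 pairs of conditions, 4 over 0.1). With the replicate block the exact permutation p was 0.0556 for the chromosome 13 difference of 6.21 between drugs and 0.0625 for the chromosome 4 MMR difference of 2.64. The region files hold no read counts, so no limit from depth was set.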
